A study of Mus musculus with 10 samples.

Results

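The 2000 most accessible peaks of purified intestinal epithelial cells (IECs) were described, of 246479 peaks with counts in the ATAC-seq of WT and Zip14 KO mice. For each mouse, the count of a peak was divided by the counts of that mouse summed without the strongest peak of the table. These shares were averaged over the 10 mice, and the 2000 peaks of highest average were taken, leaving out the strongest peak itself. The members are therefore 0.811% of all peaks, and they were chosen by their level over both genotypes together and not by a difference between them.

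ZIP14 (Slc39a14) is a transporter that moves zinc and other divalent metals into the cytosol. The KO mice carry a germline deletion within Zip14 in every tissue, and the WT mice carry the intact gene. Both came from crosses of heterozygotes on a strain backcrossed to C57BL/6, and the methods state female mice unless specified otherwise. Sorted IECs, of the duodenum by the labels and of the duodenum with the upper jejunum by the methods, came from 5 mice of each genotype, numbered WT1 to WT5 and KO6 to KO10, with 1 library a mouse, and the labels give no treatment, age or batch.

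In ATAC-seq, a transposase inserts sequencing adapters into DNA that nucleosomes leave open, so that the number of reads over a region rises with its accessibility. Promoters of active genes and enhancers bound by the transcription factors of a tissue are typically the most open regions of a cell. Enterocytes, the absorptive cells of the villus, renew from crypt stem cells and keep such regions open through factors that include HNF4 and the AP-1 family. The reads come from many cells of 1 mouse, so fewer cells with an open region and a smaller opening in each cell cannot be told apart.

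The table gives each peak an Ensembl gene ID and no position, and 9 members of 8 genes could be paired with a symbol. The pairs came from the study's table of changed transcripts, so these genes were not a random draw. None of the 16 epithelial markers listed, and no marker of another cell type, had a pair, so the cell type label was not checked against markers. Of the 8 genes, 5 had a promoter among RefSeq's sequences (build GRCm38.p6), of which the 4 below are shown because among the 9 their peaks were the 3 of narrowest spread between mice and the 1 of widest. Each runs 5′ to 3′ from 250 bases before to 50 bases after an annotated start, and whether the member peak lies there is not known from the table. That start is the 5′ end of the annotated gene other than for B3gnt3. The B3gnt3 window lies inside the annotated gene, whose 5′ end is at 71702626. Capitals mark CAAAGTCCA (a form of the HNF4 site), CCAAT (the box bound by NF-Y) and GGGCGG (the box bound by Sp factors) on either strand. No capitals overlap between motifs.
B3gnt3, chr8:71701751-71702050, minus strand: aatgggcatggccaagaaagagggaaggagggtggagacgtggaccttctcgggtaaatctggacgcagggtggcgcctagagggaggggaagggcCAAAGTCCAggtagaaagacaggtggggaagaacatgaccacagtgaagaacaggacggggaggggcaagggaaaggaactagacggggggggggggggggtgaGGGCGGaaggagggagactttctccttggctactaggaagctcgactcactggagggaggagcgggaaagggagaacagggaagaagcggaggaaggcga
St3gal4, chr9:35116815-35117114, minus strand: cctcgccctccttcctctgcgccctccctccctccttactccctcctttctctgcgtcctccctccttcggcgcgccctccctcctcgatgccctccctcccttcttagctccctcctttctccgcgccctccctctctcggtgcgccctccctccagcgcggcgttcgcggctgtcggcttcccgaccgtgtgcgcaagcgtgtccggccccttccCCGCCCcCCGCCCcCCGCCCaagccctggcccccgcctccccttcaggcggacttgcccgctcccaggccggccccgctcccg
C630043F03Rik, chr4:72200994-72201293, plus strand: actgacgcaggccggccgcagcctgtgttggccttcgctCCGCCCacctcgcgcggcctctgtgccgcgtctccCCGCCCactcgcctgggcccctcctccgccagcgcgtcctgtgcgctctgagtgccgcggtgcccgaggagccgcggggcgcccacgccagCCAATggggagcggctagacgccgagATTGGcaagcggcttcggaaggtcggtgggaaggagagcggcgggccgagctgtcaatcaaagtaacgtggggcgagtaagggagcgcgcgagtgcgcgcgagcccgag
Tas1r2, chr4:139653288-139653587, plus strand: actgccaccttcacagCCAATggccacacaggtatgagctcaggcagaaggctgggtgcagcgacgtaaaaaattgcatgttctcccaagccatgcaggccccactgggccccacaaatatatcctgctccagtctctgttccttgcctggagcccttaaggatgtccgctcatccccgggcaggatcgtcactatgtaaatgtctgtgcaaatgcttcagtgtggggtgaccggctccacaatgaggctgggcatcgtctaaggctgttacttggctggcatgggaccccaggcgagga

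The B3gnt3 window, which lies inside the annotated gene, held 1 HNF4 motif and 1 Sp box. Of the 32851 promoters of the same length, 0.475% held the former and 35.7% the latter. A run of 3 adjacent Sp boxes stood in the St3gal4 window, which had 31 CG pairs, more than 89.4% of all promoters. C630043F03Rik, a long non-coding RNA, had 41 CG pairs, 2 Sp boxes and 2 CCAAT boxes, while Tas1r2 had 8 CG pairs and 1 CCAAT box. CCAAT was found in 37.4% of all promoters and the AP-1 motif TGACTCA in 5.20%, and none of these 4 windows held the latter. A match of letters is not evidence of binding.

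The members held 20.4% ± 1.40 (SD, n = 5) of the counts of WT mice and 21.1% ± 0.878 (SD, n = 5) of those of KO mice, with the strongest peak left out of the total. By mouse, the share was 20.3%, 22.1%, 19.97%, 21.1% and 18.3% in WT1 to WT5 and 21.7%, 22.1%, 21.4%, 19.9% and 20.6% in KO6 to KO10. The genotypes overlapped, and the difference of 0.792 percentage points was no larger than the variation among mice (p = 0.333, exact two-sided permutation test). It was 0.338 with all counts in the total and -0.171, in the other direction, without the 10 strongest members. Total counts were between 4731176 and 15775481 a mouse, all but 1 of the WT libraries being deeper than every KO library. The left-out peak (ENSMUSG00000064357) alone took between 5.66% and 14.4% of them. No ID was paired with Slc39a14, so the deleted gene was not checked by name. A single peak of the table, of ENSMUSG00000022094 on chromosome 14, where Slc39a14 lies, was at 0 counts in every KO mouse and at 8 or more in each WT mouse, and it is no member. The members had a median count between 255 and 981 in a mouse, and 1994 of them had at least 100 counts in every mouse. PCR reads are not independent molecules, so the precision that such counts give covers counting error alone.

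The share of counts fell steeply over the first ranks. The strongest member, of ENSMUSG00000101111, held on average 2.70% of counts, the next (ENSMUSG00000098178) 1.65% and the third (ENSMUSG00000075014) 0.320%. The first 10 members thus held 26.7% of all the counts of the members. From rank 101 the curve was flat, from 0.0138% to 0.00487% at rank 2000, which is 49.0 times the median of all peaks. At the limit there was no step. The last members inside, of ENSMUSG00000026743, ENSMUSG00000043903 and ENSMUSG00000084915, had 0.00488%, 0.00488% and 0.00487%, and the first outside, of ENSMUSG00000046598, ENSMUSG00000063522 and ENSMUSG00000064572, had 0.00487% each. Between 1660 (WT4) and 1838 (KO8) of the members were also among the 2000 strongest peaks of the single mouse. When each mouse in turn was left out of the choice, 1963 to 1985 of the members were chosen again.

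The members carried 1849 gene IDs, 4.15% of the 44580 in the table, and 31 members had none. Of all 246479 peaks, 594 (0.241%) had no ID, against 1.55% of the members. A gene ID with a member usually had just 1, as 1752 did, while 86 had 2, 8 had 3, 1 had 5 and 2 had 8. The IDs with a member had a median of 5 peaks in the table and a mean of 6.86, and those without had a median of 4 and a mean of 5.46. Single-peak IDs made up 15.6% of the former and 19.7% of the latter. Of 403 gene IDs with 30 or more peaks, 30 had a member. The strongest peak of a gene ID stood well above its next one, by a median of 5.42 times over the 1560 IDs with a member and at least 2 peaks, and by 10 times or more in 524 of them (33.6%). Over the other 34304 IDs with at least 2 peaks, that median was 1.96, although a strong first peak is what made an ID a member ID.

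The gene IDs richest in members were neighbours of each other. ENSMUSG00000064945 and ENSMUSG00000087897 had 8 members each, of 13 peaks each, and the 16 lay within 19 consecutive peaks on chromosome 6. Their strongest peaks ranked 71 and 109. ENSMUSG00000029580 had 5 members of 12 peaks within 8 consecutive peaks on chromosome 5, with the best at rank 257. ENSMUSG00000087111 and ENSMUSG00000022565 had 3 members each, with best ranks of 56 and 105. Chromosomes were read from the order of entries, along which the 249 genes that have a symbol and a chromosome fall into 21 runs, 1 for each of 21 chromosomes. In this order the members made 13 stretches of 4 or more, with gaps of at most 5 places, which together held 98 members (4.90%).

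The longest stretch had 26 members among 38 consecutive peaks that lie after the last placed gene of chromosome 9 and before the first of X. None of the 26 had a gene ID, so that this stretch held most of the 31 members without one. It took 0.718%, 0.492%, 0.427%, 0.627% and 0.450% of counts in WT1 to WT5 and 0.718%, 0.571%, 0.642%, 0.681% and 0.625% in KO6 to KO10. WT1 was as high as the highest KO mouse, and the difference was within the spread (exact permutation test, p = 0.127, and between 0.0397 without WT1 and 0.254 without WT3 or WT5). The third stretch, between chromosomes 8 and 9, had 13 members of 8 gene IDs among 14 peaks, 10 of them of rank 1 to 100. On the 15 chromosomes with at least 10 placed genes, the members were between 0.527% (chromosome 13) and 1.28% (chromosome 17) of the peaks placed there. Of those with fewer placed genes, chromosome 19 had 1.38%, and X had 0.0642% (5 of 7789 peaks).

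Among the strongest members, many rose and fell together from mouse to mouse. Such peaks were collected around 3 peaks, namely the left-out peak (group A), the peak of ENSMUSG00000098178 (group B) and that of ENSMUSG00000075014 (group C), taking each member whose log2 ratio to that peak had an SD under 0.15 over the 10 mice. This limit was chosen after the values were seen. Of the 100 strongest members, 2 fell into group A, 23 into group B, 12 into group C and 63 into none. Beyond rank 100 there were just 5 such members in all, 3 of group B and 1 of group C in ranks 101 to 500 and 1 of group B in ranks 501 to 1000. With a limit of 0.1 the 3 groups held 20 of the strongest 100, and with 0.2 they held 48.

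The ratios were close to constant over mice of both genotypes. The peak of ENSMUSG00000101111 was between 18.9% and 22.7% of the left-out peak in every mouse (SD of the log2 ratio 0.08), while its own share of counts had an SD of 0.47 on the log2 scale. In group C, the peak of ENSMUSG00000091028 was between 39.9% and 43.4% of that of ENSMUSG00000075014 (SD 0.04, against 0.39 for its share). The 2 IDs stand far apart in the order of entries, one placed on chromosome 2 and the other between chromosomes 8 and 9. In group B, the peak of ENSMUSG00000081392 was between 7.28% and 8.51% of that of ENSMUSG00000098178, with chromosomes 11 and 17 as their places. The members of a group therefore do not give independent measurements of a genotype.

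**Figure D1:**
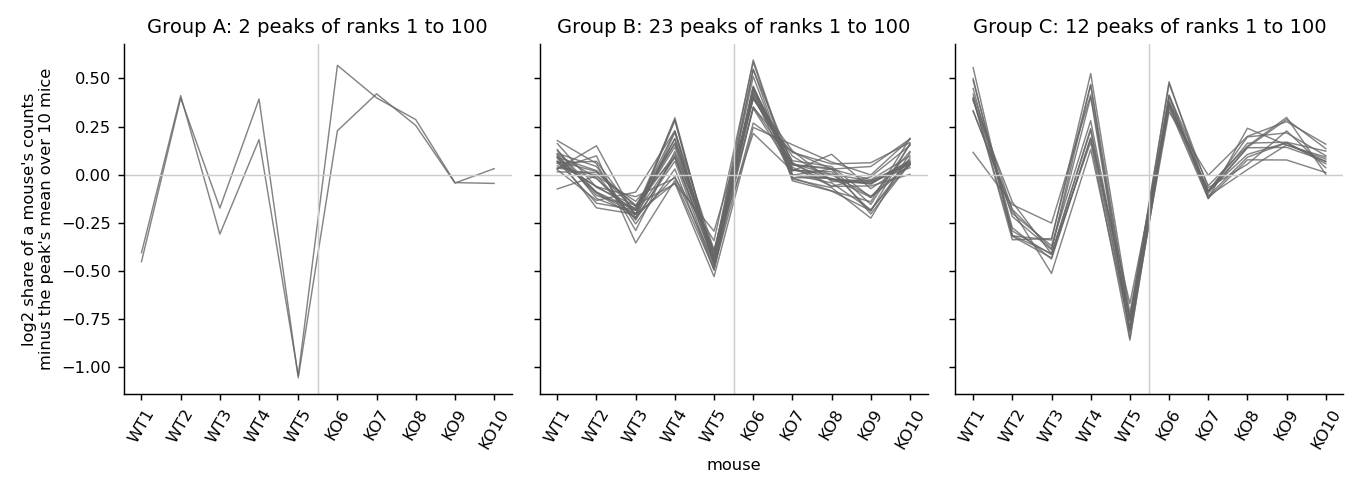
Each line is 1 member of rank 1 to 100, plotted over the 10 mice as the log2 of its share of the counts of a mouse minus the mean of that value over mice, for the 3 groups of constant ratio. The lines of a group lie close together because the ratio chose them, and in all 3 groups WT5 is the lowest mouse.

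WT5, the deepest library, was lowest in each group, and the genotypes overlapped in all of them. Group A members took 1.96%, 3.53%, 2.37%, 3.50% and 1.29% of counts in WT1 to WT5 and 3.17%, 3.58%, 3.20%, 2.60% and 2.73% in KO6 to KO10. For group B, the share was 2.35% ± 0.356 in WT and 2.73% ± 0.480 in KO mice (SD, n = 5), and KO6 was far above the rest with 3.58%. Group C took 0.858% ± 0.293 and 0.985% ± 0.121 (SD, n = 5). None of these differences passed (exact permutation tests, p = 0.302, 0.214 and 0.397).

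The share of the 100 strongest members was on average higher in KO mice and that of ranks 501 to 2000 lower, and none of these differences passed its test. Ranks 1 to 100 held 7.65%, 8.52%, 6.64%, 9.23% and 5.08% of counts in WT1 to WT5 and 10.002%, 8.81%, 8.59%, 7.96% and 8.18% in KO6 to KO10. WT5 was again lowest and KO6 highest, and WT4 lay above 4 of the KO mice. The difference was 1.29 percentage points (exact permutation test, p = 0.167). Without a mouse it was between 0.699 (without WT5, exact p = 0.325) and 1.74 (without WT4, exact p = 0.0397). Ranks 101 to 500 held 3.82% ± 0.280 and 3.86% ± 0.188 (SD, n = 5). Ranks 501 to 1000 held 3.51% ± 0.175 in WT and 3.32% ± 0.190 in KO mice (exact p = 0.159, n = 5 a genotype, and between 0.0476 without WT4 and 0.286 without KO6). Ranks 1001 to 2000 held 5.60% ± 0.259 in WT and 5.26% ± 0.291 in KO mice (exact p = 0.0952, n = 5 a genotype, 0.0397 without WT4, 0.0476 without KO7 and up to 0.183 without KO6). Over the 12 sets compared in this way, the left-out peak among them, the lowest p adjusted by the Benjamini-Hochberg method was 0.333. The lowest unadjusted p was that of the 63 members of rank 1 to 100 outside the groups of constant ratio, which held 1.68% ± 0.236 of counts in WT and 1.94% ± 0.105 in KO mice (SD, n = 5, exact p = 0.0556, and between 0.0159 without WT1 and 0.151 without KO6).

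**Figure D2:**
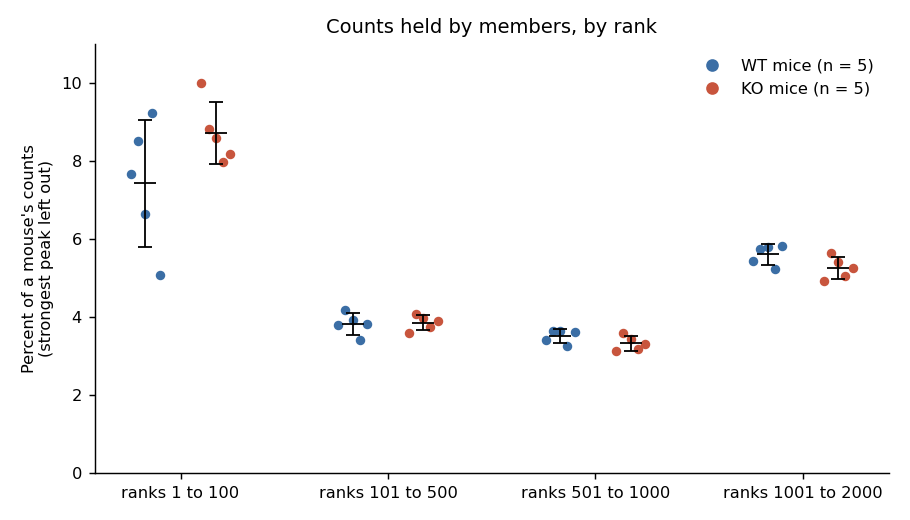
Percent of the counts of each mouse that fell in members of 4 rank bands, with the strongest peak of the table left out of the total. Points are mice, and bars give the mean and SD of 5 mice. WT and KO mice overlap in every band, and the spread is widest in ranks 1 to 100, from 5.08% to 10.002%.

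KO was compared with WT peak by peak, to ask whether the members differ with the loss of Zip14. Whether the counts of the strongest peaks reflect open chromatin was not tested. No member passed an adjusted p of 0.05 in edgeR's quasi-likelihood test over 81022 peaks with enough counts for its filter, of which 1998 were members (0% of all peaks tested were called). The lowest adjusted p of all peaks was 0.0594, which 3 members shared with peaks outside the 2000. At an unadjusted p under 0.05, 96 members were lower in KO mice (4.80%, against 5.65% of all peaks tested) and 116 were higher (5.81%, against 10.4%). When libraries were scaled by total counts without TMM factors, that split turned to 213 lower (10.7%, against 8.74% of all peaks) and 84 higher (against 8.14%). With loess offsets 53 were lower (2.65%) and 114 higher (5.71%), against 6.12% and 7.53% of all peaks. With TMM factors from the members alone 62 were lower (3.10%) and 146 higher (7.31%), against 4.01% and 11% of all peaks. The split thus moved over all peaks as well. DESeq2 put 117 members lower (against 4.36% of all peaks tested) and 92 higher (against 7.99%) at an unadjusted p under 0.05. It called 20 members at an adjusted p under 0.05, all of them higher in KO mice, which is 1% of the members against 0.723% of all peaks with an adjusted p. When each peak had to have 10 counts in every mouse, edgeR called 23 members, 19 of them among these 20, which is 1.15% of the members against 1.58% of all peaks. In edgeR without 1 mouse, 41 were called without WT2 (2.05%, against 2.19%), 5 without KO7 (0.250%, against 0.0710%) and 4 without WT1 (0.2002%, against 0.0908%). None was called without any of the other mice.

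Fold changes of the members were small. The median log2 fold change, KO against WT, was -0.03 over the 1998 members and -0.003 over all peaks tested, the middle 50% of members lay between -0.10 and 0.06, and the extremes were -0.91 and 0.95. No member was 2-fold apart, and 19 were apart by 1.5-fold or more. The median of the members turned to 0.004 with at least 10 counts in every mouse and fell to -0.18 with no filter on low counts.

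The direction went with rank. Of the 100 strongest members, 34 were higher and 0 lower in KO mice by an unadjusted p under 0.05, with a median log2 fold change of 0.27, where 10.4% of all peaks tested were higher and 5.65% lower. In ranks 101 to 500, 50 were higher (12.5%) and 7 lower (1.75%), with a median of 0.02. That split was 34 (8.50%) and 17 (4.25%) with total counts, against 8.14% and 8.74% of all peaks. It turned to 24 higher (6%, against 6.75% of all peaks) and 83 lower (20.8%, against 7.09%) with no filter on low counts. The higher ones were 30 without WT5 (7.50%, against 7.84%), 29 with 1 surrogate variable (7.25%, against 7.24%) and 68 without WT2 (17%, against 12%). In ranks 501 to 1000, 12 were higher (2.40%) and 16 lower (3.21%), with a median of -0.04. The lower ones were 27 with DESeq2 (5.41%, against 4.36% of all peaks), 51 with total counts (10.2%, against 8.74%), 66 with total counts without the strongest peak (13.2%, against 9.89%), 165 with no filter on low counts (33%, against 7.09%), and 8 (without KO9) to 32 (without KO7) when a mouse was left out. With at least 10 counts in every mouse, 8 were lower (1.60%, against 5.10%) and 15 higher (3.01%, against 10.3%). With loess offsets 13 were lower (2.61%, against 6.12%) and 14 higher (2.81%, against 7.53%), and TMM factors from the members gave the same counts (against 4.01% and 11%). The higher ones were 5 without WT5 (1.002%, against 7.84%). In ranks 1001 to 2000, 20 were higher (2.002%) and 73 lower (7.31%), with a median of -0.05. In the 2000 peaks next in rank 35 were higher (1.75%) and 177 lower (8.85%), with a median of -0.07. With loess offsets, 31 were lower and 31 higher in ranks 1001 to 2000. The lower ones there were 145 with total counts (14.5%, against 8.74% of all peaks) and 169 without the strongest peak (16.9%, against 9.89%). With no filter on low counts, 345 were lower (34.5%, against 7.09%). Of the 999 tested, 42 were lower with TMM factors from the members, 40 with 1 surrogate variable and 38 with at least 10 counts. All peaks had 4.01%, 3.68% and 5.10% there. Without a mouse, 39 (without KO9) to 92 (without KO7) were lower. Over the 18 other fits, the median stayed between 0.11 and 0.33 in ranks 1 to 100 and between -0.20 and -0.01 in ranks 1001 to 2000, and it changed sign in ranks 101 to 500, from -0.14 to 0.05.

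The preponderance of higher peaks in ranks 1 to 100 kept its direction under the other fits. The number higher was between 16 and 52 over 18 other fits, the lowest without WT3 (against 9.94% of all peaks) and the highest without WT4 (against 9.60%). It was 18 without WT5 (against 7.84% of all peaks) and 19 without KO6 (against 8.75%), the mice with the lowest and the highest share of these peaks. No peak of these ranks was lower at that p in any fit other than that with no filter on low counts, where 3 were. Of the 34, 5 belonged to the groups of constant ratio and 29 to the 63 peaks outside them. The stretch of 26 members without a gene ID gave 7 of the 34, and 18 came from the 41 peaks in no group and in none of the 3 longest stretches. Depth moved with these results, WT5 being the deepest library and the lowest of the 10 mice in 61 of these 100 peaks, and its part in them was not tested.

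**Figure D3:**
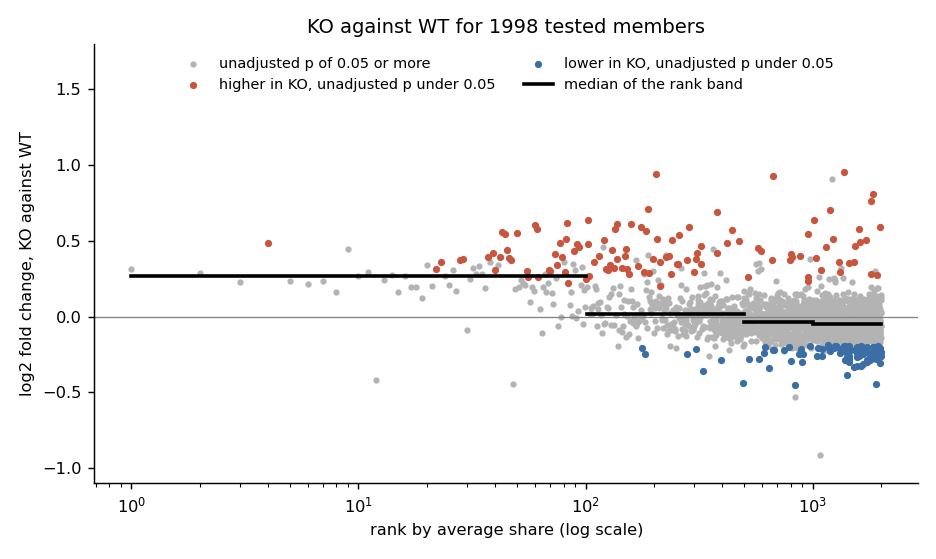
Log2 fold change of KO against WT for each of the 1998 members tested, plotted by rank on a log axis. Coloured points have an unadjusted p under 0.05, and black lines are the medians of 4 rank bands. The median is 0.27 in ranks 1 to 100 and -0.05 in ranks 1001 to 2000.

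In 20 members every KO mouse was above every WT mouse (1%, against 1.84% of all peaks tested), and in 25 every KO mouse was below (1.25%, against 1.21%). The 5 of lowest p among the former are given first. The peak of ENSMUSG00000044021 (chromosome 15, rank 204) had 89.9, 96.7, 67.7, 48.8 and 57.0 CPM (counts scaled to library size with TMM factors) in WT1 to WT5 and 130.1, 119, 136, 160.1 and 141 in KO6 to KO10. This member had the lowest p of the members, with a log2 fold change of 0.94 (SE 0.15, adjusted p = 0.0594, edgeR, and between 0.000207 and 0.185 over the other fits). The ENSMUSG00000096755 peak (between chromosomes 10 and 11, rank 379) had 69.2, 68.3, 71.0, 48.0 and 68.0 CPM in WT and 103, 94.7, 92.8, 127 and 107 in KO mice, and the log2 fold change was 0.69 (SE 0.11, adjusted p = 0.0594, edgeR).

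A further 3 members were separated in the same direction. For the peak of ENSMUSG00000017412 (chromosome 2, rank 1019), CPM was 48.3 ± 5.86 in WT and 74.6 ± 10.004 in KO mice (SD, n = 5). The ENSMUSG00000088311 peak (chromosome 8, rank 1802) had 37.7 ± 3.47 and 63.7 ± 17.2 CPM, where KO6 at 88.7 CPM was the highest and KO7 at 44.1 CPM the closest to WT. The ENSMUSG00000098707 peak (between chromosomes 12 and 13, rank 50) had 199 ± 20.3 and 291 ± 45.2 CPM. Adjusted p values of these 3 were 0.0594, 0.0619 and 0.0675 (edgeR). All 5 stayed at an unadjusted p under 0.05 in each of the 18 other fits. They were chosen for a low p, and those fits reuse the same counts, so this is not independent evidence. At an adjusted p under 0.05 (edgeR or DESeq2), ENSMUSG00000044021 and ENSMUSG00000096755 passed in 6 of those fits each, ENSMUSG00000017412 in 4, ENSMUSG00000088311 in 5 and ENSMUSG00000098707 in 3.

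The lower members were closer to WT. The peak of ENSMUSG00000004535 (chromosome 6, rank 1634) had 58.4, 51.9, 64.0, 51.9 and 63.0 CPM in WT1 to WT5 and 51.4, 42.9, 44.4, 42.0 and 51.5 in KO6 to KO10, where 2 KO mice fell just short of the lowest WT mice. Its log2 fold change was -0.32 (SE 0.10, adjusted p = 0.119, edgeR). The ENSMUSG00000025544 peak (between chromosomes 14 and 15, rank 1787) was tighter in WT mice, at 55.2 ± 1.46 CPM, against 45.7 ± 3.63 in KO mice (SD, n = 5). ENSMUSG00000027356, ENSMUSG00000024077 and ENSMUSG00000081715, at ranks 1449, 1988 and 1730, had log2 fold changes of -0.26, -0.31 and -0.30 with adjusted p values of 0.136, 0.145 and 0.166 (edgeR). These 5, also chosen for a low p, lay at an unadjusted p under 0.05 in each other fit of the same counts too. All of them lie in ranks 1001 to 2000. With no filter on low counts the 5 log2 fold changes were between -0.49 and -0.42.

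**Figure D4:**
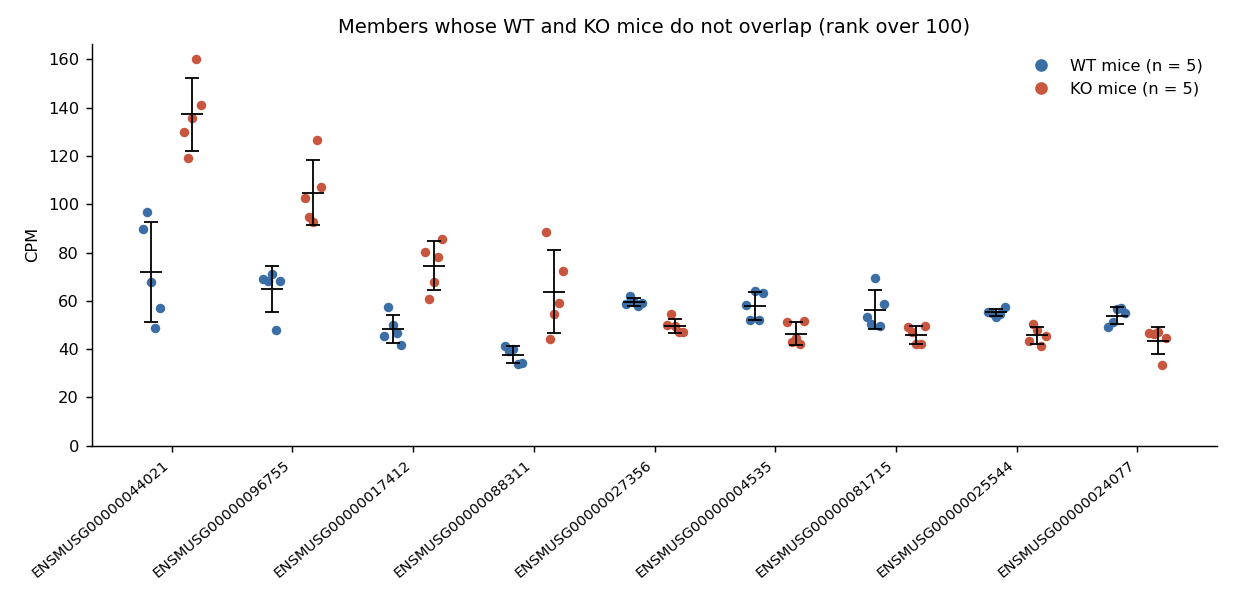
CPM of 9 members beyond rank 100 whose WT and KO mice do not overlap, 4 higher in KO on the left and 5 lower on the right. Points are mice, and bars give the mean and SD of 5 mice. The higher members differ by up to 0.94 on the log2 scale and the lower ones by at most 0.32.

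Spread between mice was narrow for most members. The coefficient of variation (CV) of CPM over the 10 mice had a median of 10.6%, where counting alone would give 5.31%. It was 10.9% in the 2000 peaks next in rank and 23.8% over all peaks tested, whose counts are far lower. The strongest 100 were the exception, with a median CV of 22.0% and counting error of 2.68%, while ranks 101 to 500 had 11.1%. In ranks 1 to 100, 86 of 100 peaks spread more widely among WT than among KO mice (median CV 21.7% and 12.9%), and in ranks 1001 to 2000 it was 536 of 999. The 100 are not separate measurements of spread. Of them, 37 belong to groups of constant ratio, and WT5 alone was the lowest of the 10 mice in 61. The highest mouse was at least 2 times the lowest in 61 of the 100 strongest peaks and in 41 of the 999 of ranks 1001 to 2000.

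The same few mice made most of the extremes. WT2 was the highest of the 10 mice in 689 of the 1998 members (34.5%), followed by KO7 with 305. WT4 was the lowest in 594 (29.7%), KO9 in 480 and KO6 in 397. In ranks 1 to 100 the mice differed, with KO6 highest in 45 and WT5 lowest in 61. A mouse departed from the median of its genotype by a typical 0.06, 0.13, 0.06, 0.14 and 0.03 on the log2 scale in WT1 to WT5 and by 0.12, 0.10, 0.05, 0.09 and 0.05 in KO6 to KO10. The means were 0.08 in both genotypes (difference -0.004, exact permutation test, p = 0.905). The centred log2 CPM had a median over the members of -0.02, 0.12, 0.05, -0.07 and -0.003 in WT1 to WT5. It was -0.07, 0.09, 0.03, -0.09 and -0.004 in KO6 to KO10. The members as a whole thus lay high in WT2 and KO7 and low in WT4, KO6 and KO9.

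The first principal component of the members, with 33.5% of the variance of log2 CPM, ran between WT2 at -7.49 and WT4 at 12.6, with KO7 at -5.50 on the side of WT2. Genotypes overlapped on it (mean 1.93 in WT and -1.93 in KO mice, exact permutation test, p = 0.333). Without WT2 the difference was -8.04 (exact permutation test, p = 0.00794, the smallest that these mice allow). Without WT4 the refitted first component was another axis, whose weights had a cosine of 0.28 with those from all mice, so that its scores are not compared. On the second, with 25.4% of the variance, scores were -2.77 in WT and 2.77 in KO mice on average (exact p = 0.0794).

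The 5 members of widest spread did not split by genotype. The peak of ENSMUSG00000111106 (rank 350, CV 91.8%) held 13, 15, 884, 1643 and 2260 counts in WT1 to WT5 and 12, 475, 20, 782 and 563 counts in KO6 to KO10. WT1, WT2, KO6 and KO8 were near 0 and the other 6 mice at 98.6 CPM or more, with no mouse between. The St3gal4 peak (rank 1074, CV 83.3%), of a sialyltransferase that caps glycans, had counts of 46, 313, 524, 898 and 2072 in WT and 47, 31, 386, 52 and 459 in KO mice. WT1, KO6, KO7 and KO9 were between 6.48 and 10.4 CPM, and the other 6 between 58.4 and 131 CPM. Its log2 fold change of -0.91 was the lowest of the members and had an SE of 0.63 (adjusted p = 0.499, edgeR). Without KO10 it was -1.64 (unadjusted p = 0.0196, edgeR), and its unadjusted p was also under 0.05 without WT1 (-1.21) and with no filter on low counts (-1.07). Without WT5 it was -0.63.

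In the other 3, some mice were again below the rest, though in ENSMUSG00000110834 without a wide gap. In the ENSMUSG00000106535 peak (rank 1219), WT4, WT5 and KO6 had 7.63, 7.12 and 12.5 CPM, WT2 had 35.5 CPM and the other mice 72.0 to 105 CPM. In the ENSMUSG00000050854 peak (chromosome 4, rank 48), WT3, KO6, KO7 and KO10 were between 61.1 and 82.8 CPM and the others between 241 and 600.4 CPM. ENSMUSG00000110834 (rank 227) had 28.2 and 29.3 CPM in KO6 and KO10 and 51.7 to 218 CPM elsewhere. KO6 was at the low level in each of the 5 peaks, with 2.38, 9.32, 80.3, 12.5 and 28.2 CPM in ENSMUSG00000111106, St3gal4, ENSMUSG00000050854, ENSMUSG00000106535 and ENSMUSG00000110834, while the mice that joined it differed. Only 9 of the 1998 members tested had a highest mouse at least 5 times the lowest.

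**Figure D5:**
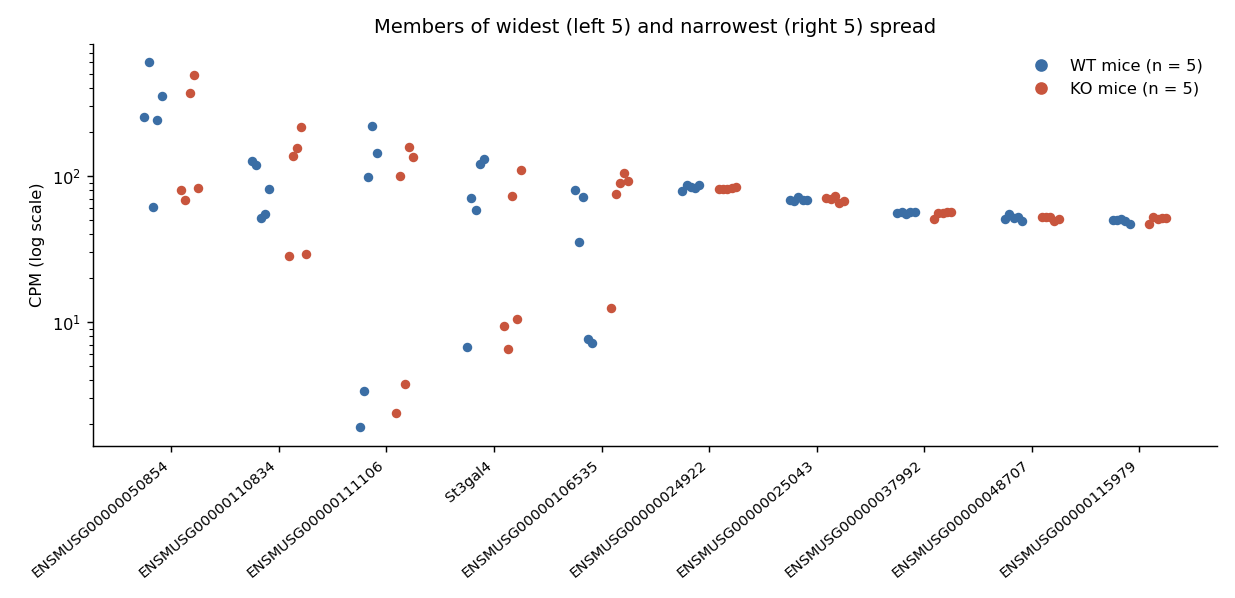
CPM on a log axis of the 5 members of widest spread between mice, on the left, and the 5 of narrowest spread, on the right. Points are mice. In 4 of the wide members mice of both genotypes stand far below the rest, in ENSMUSG00000110834 KO6 and KO10 are lowest, and in the narrow ones all mice lie within 1.12 times of each other.

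At the other end, the narrowest 5 members varied less than counting alone would give on average. The ENSMUSG00000024922 peak (chromosome 19, rank 406) had 83.5 ± 3.11 CPM in WT and 82.1 ± 1.15 CPM in KO mice (SD, n = 5), a CV of 2.82% where counting gives 4.56%. ENSMUSG00000025043, ENSMUSG00000037992, ENSMUSG00000048707 and ENSMUSG00000115979 had CVs of 2.99%, 3.13%, 3.37% and 3.73%. They are the lowest of 1998 values, chosen for it.

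A pair of members, of ENSMUSG00000076578 (chromosome 6, rank 789) and ENSMUSG00000076615 (chromosome 12, rank 1080), were high in 1 mouse alone. KO7 had 3217 counts in the first and 2908 in the second. The other 9 mice had between 1 and 16 counts in the first and between 1 and 8 in the second. These are the 2 members that did not pass the filter on low counts, and 1 library put them above the rank limit.

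Of the members with a symbol, those of glycan enzymes, taste and non-coding genes other than St3gal4 differed little. The B3gnt3 peak (rank 493), of an enzyme that extends O-linked glycans, had 75.1 ± 6.75 CPM in WT and 79.3 ± 11.8 CPM in KO mice (SD, n = 5). The peak of Tas1r2 (rank 726), a subunit of the sweet taste receptor, had 67.5 ± 4.20 and 68.6 ± 10.3 CPM, and that of C630043F03Rik (rank 506) had 78.4 ± 4.35 and 74.97 ± 10.2 CPM. Their log2 fold changes were 0.08, 0.02 and -0.06 with SEs of 0.11, 0.10 and 0.10 (adjusted p of 0.772 or more, edgeR). For each, at least 1 other fit turned the sign.

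Members in the class I region of the MHC spread more. H2-Bl, a class I pseudogene of chromosome 17, had 93.7, 138, 127, 47.2 and 60.9 CPM in WT1 to WT5 and 115, 131, 142, 88.2 and 136 CPM in KO6 to KO10 (rank 189). H2-T25, also class I, had 45.7, 72.8, 67.0, 30.8 and 35.0 CPM and 64.1, 66.7, 59.7, 53.2 and 66.6 CPM (rank 1333). In both, WT4 and WT5 were the lowest mice, and WT2 and WT3 lay within the range of the KO mice in H2-Bl and above it in H2-T25. Their log2 fold changes were 0.40 (SE 0.22) and 0.32 (SE 0.18), with adjusted p values of 0.380 and 0.404 (edgeR). They were 0.23 and 0.18 without WT4, 0.14 and 0.09 with 1 surrogate variable, and 0.57 and 0.47 without WT2, where the unadjusted p was 0.0144 and 0.0121 (edgeR). The peak of Mid1-ps1 (rank 1193), a pseudogene that RefSeq places on Y, had a log2 fold change of 0.71 (SE 0.23, adjusted p = 0.145, edgeR), with WT1 at 75.3 and WT3 at 59.8 CPM among the KO mice at 55.6 to 87.1 CPM and the other WT mice between 25.8 and 32.6 CPM. Tcp10c, a gene of the t-complex, had 2 members, at -0.13 (SE 0.28) and -0.44 (SE 0.19) on the log2 scale (adjusted p = 0.869 and 0.277, edgeR). The former changed sign with 1 surrogate variable (0.45) and without WT1, WT4 or KO7. The latter was -0.11 with 1 surrogate variable and between -0.65 and -0.34 without a mouse. Its unadjusted p of 0.0366 rose above 0.05 with DESeq2, with 1 surrogate variable and without WT1, WT4, WT5, KO7, KO9 or KO10.

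Of the MHCII genes and regulators listed, 6 had a paired ID, and none had a peak among the 2000. Their best peaks ranked 14751 (Ciita, the MHCII transactivator), 15738 (H2-Aa), 26372 (H2-Eb1), 28042 (Cd74), 29735 (H2-Ab1) and 36253 (H2-DMb1). Ribosomal protein genes had 2 paired IDs and core histone genes 3, none with a member. All the other lists had 0 paired IDs, so whether their genes have members is not known.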

How the data were processed

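ATAC-seq of sorted small-intestinal IECs (duodenum per the labels, with upper jejunum per the methods) from 5 WT and 5 Zip14 KO mice was analysed, with genotype and mouse number from the labels. The authors deposited raw counts per peak for 1 peak set shared by all mice (build mm10, per the labels), together with a normalized signal that is the count divided by 1 factor a mouse, which was not tested. How reads were aligned, deduplicated and shifted for the transposase, how peaks were called and how gene IDs were assigned are not given in the sources used here, and what these steps did to the counts is not known. Of 246501 entries, 22 hold no value. A second deposited table is identical to the first and was not used.

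The members and the gene lists were chosen with earlier results of these data known. Counts of all peaks passed edgeR's filterByExpr (81022 of 246479), were TMM-normalized and were tested with edgeR 4.0.16 under R 4.3.3 (glmQLFit, glmQLFTest), with genotype alone in the model and p adjusted by Benjamini-Hochberg over all peaks tested. A value of 1 per mouse was compared by exact two-sided permutation over the 252 labelings, whose smallest p is 0.00794. Log2 CPM used a prior count of 2. Each mouse is 1 library, so p-values measure the spread between mice. The script was tested on simulated counts.

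Peaks were named by a rule: the 10 strongest members, the 5 of lowest p in each direction among those whose genotypes do not overlap, the strongest of the 5 gene IDs with most members, the 5 widest and 5 narrowest, 3 on each side of the rank limit, and members with a symbol. The members not tested and the groups of constant ratio were chosen after their values were seen. Symbols came from 302 pairs in the study's gene table, of which 267 had a peak, and chromosomes from RefSeq (GRCm38.p6). Alternatives were DESeq2 1.42.0, total counts with and without the strongest peak, loess offsets (span 0.3), TMM factors from the members, other filters, 1 surrogate variable (sva 3.50.0), a prior count of 0.5, thinned counts, other numbers of members and leaving out each mouse. Added after seeing the data were the rank bands, the shares without the 10 strongest or the 2 untested members, and other limits of the constant ratio. Tables were made with Python 3.11.15.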

Additional observations from a re-analysis of the deposited data

Results flagged for a closer look

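In each genotype, the highest and the lowest of 5 mice were compared with the others, and a mouse was singled out when its gap to the nearest mouse was over 0.71 of the range (Dixon's test). This singled out 12 values in 126 groups of 5 mice. Chance gives about 1 in 20 for independent measures that were not chosen by their values. Many of these peaks were named for their values, and the measures are not independent, so that rate does not apply.

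KO6 was singled out most often. It was high in the share of group B members (3.58%), and in the peaks of ENSMUSG00000098178 (24616 CPM), ENSMUSG00000081392 (1791 CPM), ENSMUSG00000096384 (1575 CPM) and ENSMUSG00000095186 (1335 CPM), of which the first 3 belong to group B and the last to group C. It was low in the narrow peak of ENSMUSG00000037992, with 51.0 CPM.

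KO7 stood alone with 3217 counts of ENSMUSG00000076578 and 2908 of ENSMUSG00000076615. Among the WT mice, WT2 was apart with 16 counts in the first of these peaks, and WT4 with 1 count in the second. Both are low counts, in members named after their values were seen. KO9 was low in the ENSMUSG00000024077 peak with 33.3 CPM, without which its log2 fold change of -0.31 was -0.23. WT4 was low in the ENSMUSG00000096755 peak with 48.0 CPM, and without it the log2 fold change there was 0.59 in place of 0.69.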

How the results depend on the processing

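No paired analysis was possible because WT mice carry the numbers 1 to 5 and KO mice 6 to 10, so the genotypes share none. The count of members at an adjusted p under 0.05 was 0 in edgeR with the other scalings, with 1 surrogate variable and with every other choice of members. It was 20 with DESeq2, 23 with at least 10 counts in every mouse, 7 with no filter, and between 0 and 41 when a mouse was left out (41 without WT2, 5 without KO7, 4 without WT1). As shares of the members against all peaks, these were 1% and 0.723% with DESeq2, 1.15% and 1.58% with 10 counts, 0.350% and 0.160% with no filter, 2.05% and 2.19% without WT2, 0.250% and 0.0710% without KO7, and 0.2002% and 0.0908% without WT1. The 96 members lower at an unadjusted p under 0.05 became 213 with total counts, 254 with total counts without the strongest peak, 53 with loess offsets, 62 with TMM factors from the members, 596 with no filter, 51 with at least 10 counts, 59 with 1 surrogate variable, 23 of the strongest 1000 and 273 of the strongest 4000, and 51 to 133 without a mouse. Of the members against all peaks, 12.7% and 9.89% were lower with total counts without the strongest peak, 29.8% and 7.09% with no filter, 2.55% and 5.10% with at least 10 counts, and 2.95% and 3.68% with 1 surrogate variable. The 116 higher became 60 with no filter (3%, against 6.75% of all peaks) and 69 to 144 without a mouse. Without a mouse, 4.21% to 7.01% of all peaks were lower and 7.84% to 12% higher. The 51 lower members (2.55%, without KO9) stand against 4.79% of all peaks, the 133 (6.66%, without KO7) against 5.66%, the 69 higher (3.45%, without WT5) against 7.84% and the 144 (7.21%, without WT2) against 12%. With members chosen without a mouse, they were 79 to 98 lower and 114 to 121 higher. The median log2 fold change was -0.18 with no filter, -0.06 to -0.01 without a mouse and -0.03 to -0.02 with members chosen without a mouse. The cause of these changes was not tested.

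The difference in the share of the members, 0.792 percentage points, was -0.171 without the 10 strongest and 0.282 to 1.23 without a mouse. The difference on the first principal component, -3.86, was 0.547 with total counts and -8.04 to 5.28 without a mouse. Each refitted component was turned to match the weights from all mice, with a cosine of 0.866 with total counts and of 0.884 or more without a mouse, other than without WT4, where it was 0.281 and the 5.28 belongs to another axis. The difference in departure, -0.004, was -0.0144 to 0.00801 without a mouse, and above 0 without WT2, WT4, KO8 or KO10. The gene IDs were 923 for the strongest 1000 peaks, 3567 for the strongest 4000 and 1843 to 1851 with members chosen without a mouse. Signs turned for Tas1r2 with total counts (-0.0348), without the strongest peak (-0.0341) and with no filter (-0.13), for B3gnt3 with no filter (-0.0742), and with 1 surrogate variable for C630043F03Rik (0.00809) and a Tcp10c peak (0.45). Without a mouse, Tas1r2 was between -0.0780 and 0.0755 and that Tcp10c peak between -0.32 and 0.0619. The share of ranks 101 to 500 differed by -0.0434 percentage points with all counts in the total, and by -0.0706 to 0.124 without a mouse.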
